A study of Harpegnathos saltator with 18 samples.

Results

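The antenna of Harpegnathos saltator workers was compared with the worker fat body, which set 6 libraries (3 of antenna, 3 of fat body) against each other out of the 18 libraries of 6 tissues in the series. The 6 libraries were chosen by their tissue labels alone, and 8352 rows of the deposited table at 1 RPKM or more in at least 3 of the 6 were tested. RPKM divides the reads of a gene by its length and by the total of the library. The animals are ants in which a worker can mate and become an egg-laying gamergate. Both tissues came from workers kept in climate-controlled plaster nests and fed live crickets. The remaining libraries were the retina, optic lobe and non-visual brain of workers and the ovary of gamergates, so a value of ovary carries both a tissue and a caste. The age of the ants and any pooling of animals are not given in the sources used for these values. Nothing in the labels ties a replicate to an animal of its own, so each p-value reflects the spread among these 6 libraries and that spread may be technical.

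The antenna is the main organ of smell of an insect. It carries sensory hairs in which the dendrites of olfactory and taste neurons are bathed in a fluid secreted by support cells, and that fluid is rich in small soluble proteins that bind odorants. Ants have a large repertoire of odorant receptors, and smell guides their recognition of nestmates and castes. The fat body serves an insect as liver and adipose tissue together. Its cells store lipid, glycogen and protein, detoxify foreign compounds, answer infection, and secrete most of the proteins of the hemolymph, among them storage proteins and, in reproducing females, yolk precursors. None of the identifiers in the deposited table (0 of 20755) matched the 14329 genes of the RefSeq table used for names. Genes therefore appear under their identifiers, and no role is assigned to any of them. Known markers of olfactory neurons, support cells or fat body cells could therefore not be looked up, and the labelled tissues were not checked against them.

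The antenna libraries were far shallower than those of fat body, and antenna replicate 3 stood apart from the other antenna libraries. Reads were recovered from the RPKM steps, and the totals behind the RPKM were 4.73, 2.37 and 3.04 M (mega) reads in antenna replicates 1 to 3 and 14.7, 16.2 and 8.2 M in fat body replicates 1 to 3. Gene models took 19.6, 22.9 and 36.9% of those totals in antenna and 46.3 to 54.6% in fat body. For a gene of 1000 bases, 3 reads were worth 0.634 to 1.27 RPKM in an antenna library and 0.185 to 0.366 RPKM in a fat body library, and such floors cover counting error only. Across the 8352 rows, which share these libraries and are not independent replicates, log2(RPKM + 1) of antenna replicates 1 and 2 correlated at 0.61 (Pearson). Antenna replicate 3 correlated at 0.50 and 0.51 with these and at 0.52 to 0.56 with the fat body libraries. The fat body libraries correlated with each other at 0.83 to 0.90. The main counts of genes are therefore given with and without antenna replicate 3. In bulk tissue, fewer cells of a type and less RNA per cell cannot be told apart.

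A small part of the rows was called different between antenna and fat body, and the called rows held much of the RPKM of fat body and of antenna replicates 1 and 2. With all 6 libraries, 297 genes were higher in antenna (3.56% of the 8352 rows) and 378 were higher in fat body (4.53%), at a difference of at least 2-fold and a Benjamini-Hochberg adjusted p under 0.05 in a two-sided limma test on log2(RPKM + 1). Both directions together made 675 genes (8.08%). The median log2 difference was 3.76 among the genes higher in antenna and -3.41 among those higher in fat body, and the threshold itself removes small differences from both. At least 16-fold differences were found for 121 genes in favour of antenna and 123 in favour of fat body, and at least 64-fold differences for 26 and 12. These counts depended on antenna replicate 3, without which they were 171 and 238 at 16-fold and 38 and 38 at 64-fold. Without antenna replicate 3, 487 genes were higher in antenna (5.83%) and 889 in fat body (10.6%). Of the 297 genes higher in antenna, 290 were among the 487, and of the 378 higher in fat body, 367 were among the 889. Both counts depended on which library was left out. They were 108 and 105 without antenna replicate 1, 104 and 97 without antenna replicate 2, 42 and 11 without fat body replicate 1, 39 and 4 without fat body replicate 2, and 38 and 3 without fat body replicate 3. By ranges alone, all antenna libraries lay above all fat body libraries in 1244 rows (14.9%) and below all of them in 1078 rows (12.9%). These were 1641 rows (19.6%) and 2346 rows (28.1%) without antenna replicate 3.

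**Figure D1:**
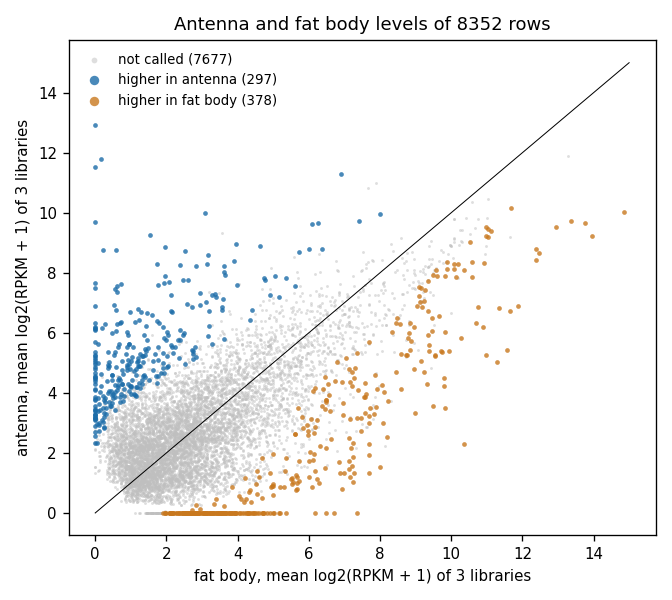
Mean log2(RPKM + 1) of the 3 antenna libraries (vertical axis) against that of the 3 fat body libraries (horizontal axis) for the 8352 rows tested, with the line of equal level. The 297 genes higher in antenna and the 378 higher in fat body lie off the line on either side, and a row of genes higher in fat body lies at 0 in antenna.

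The balance between the directions depended on the scaling of the libraries. The deposited RPKM summed to 224908 to 320647 per antenna library and to 381104 to 447555 per fat body library, and the median row differed by -0.05 on the log2 scale. As deposited, 44% of the calls were higher in antenna. That share was 64.9% once every library was rescaled to an equal sum (495 and 268 genes, median row at 0.39), 24% with trimmed-mean factors (253 and 799 genes, median row at -0.49) and 46.2% with quantile normalization (342 and 399 genes, median row at 0.01). Without antenna replicate 3 the share was 35.4% as deposited, 57.9% rescaled, 25.4% with trimmed-mean factors and 49% with quantile normalization.

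The genes higher in antenna took unequal shares of the antenna libraries. These 297 genes held 33% of the RPKM of antenna replicate 1, 24.9% of replicate 2 and 7.75% of replicate 3, and 0.43 to 0.6% of each fat body library. Their median level was 42.1, 38.6 and 28.2 RPKM in antenna replicates 1, 2 and 3 and 0.62 to 1.23 RPKM in the fat body libraries. The 378 genes higher in fat body held 45.9 to 51.6% of the RPKM of the fat body libraries and 6.32, 8.66 and 10% of antenna replicates 1, 2 and 3. Their median level was 35.1 to 52 RPKM in fat body, 0 in antenna replicates 1 and 2, and 3.59 in antenna replicate 3. The highest row of a library held 6.39 to 7.92% of the RPKM in antenna and 5.93 to 8.2% in fat body, and the groups overlapped (exact permutation test, two-sided p = 0.9). The 10 highest rows of a library held 16.2 to 21.7% of the RPKM in antenna and 24.1 to 31.4% in fat body, and the groups did not overlap (exact permutation test, two-sided p = 0.1, the smallest that 3 against 3 libraries can give). Of the 100 rows with the highest mean level in each tissue, 50 were shared, which is 50% of either list. Of the 100 highest in fat body 55 were called higher there, and of the 100 highest in antenna 24 were called higher in antenna (75 and 23 without antenna replicate 3). Of all 8352 rows, 4.53 and 3.56% were so called (10.6 and 5.83% without antenna replicate 3). The 100 rows were taken for a high level in the same libraries, which raises these counts by itself.

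HSALG011619.1 and HSALG011110.1 had the largest differences in favour of antenna among genes called with and without antenna replicate 3 whose tissues did not overlap. HSALG011619.1 stood at 15724, 15704 and 1901 RPKM in antenna replicates 1, 2 and 3 (26991, 13501 and 2096 reads) and had no read in any fat body library. Replicates 1 and 2 were alike and replicate 3 was the low one, but each antenna library lay above every fat body library. Its log2 difference was 12.92 (SE 0.81, adjusted p = 0.000799, limma). With 3 reads over the 3 fat body libraries as the floor, HSALG011619.1 was at least 52578-fold higher in antenna. HSALG011110.1 stood at 7767, 6931 and 823.5 RPKM in the antenna libraries and at 0.409, 0 and 0 in fat body. Again replicate 3 was the lowest antenna library, and no library of the tissues overlapped. The log2 difference of HSALG011110.1 was 11.62 (SE 0.85, adjusted p = 0.00134, limma). Its fat body value rested on 2 reads, and the ratio of the mean levels was 33692-fold with a counting interval (exact Poisson, 95%) of 9327 to 278205. This interval and the bounds from 3 reads, here and below, use mean levels and take reads as independent. They leave out the spread among libraries. Between 62.3 and 68% of read counts from 1 to 10 in these libraries were even, so reads were not independent molecules. The interval is therefore too narrow and the bounds are too high. Outside the antenna both genes were low, with 0 to 6.27 RPKM for HSALG011619.1 and 0 to 1.36 RPKM for HSALG011110.1 over the other 15 libraries. HSALG011619.1 was detected in all 3 optic lobe libraries, at 4.25, 2.39 and 6.27 RPKM. Their recovered coding lengths were 363 and 333 bases.

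HSALG001632.1 and HSALG022430.1 had the largest differences in favour of fat body by the same rule. HSALG001632.1 stood at 922, 2098 and 1162 RPKM in fat body and at 0, 0 and 117.7 RPKM in antenna replicates 1, 2 and 3. All its antenna signal, 89 reads, lay in replicate 3. Its log2 difference was -8.06 (SE 1.67, adjusted p = 0.0291, limma), and -10.36 (SE 0.47, adjusted p = 0.000398, limma) without antenna replicate 3. The call of HSALG001632.1 ended when any of the other 5 libraries was left out (adjusted p of 0.0811 to 0.122, limma). Of the other tissues, retina held 40.7 to 95.6 RPKM of HSALG001632.1 and ovary 10.4 to 39.4 RPKM. HSALG022430.1 stood at 66.9, 174.9 and 374.5 RPKM in fat body and had no read in any antenna library. The fat body libraries spread widely for this gene, yet the lowest of them rested on 230 reads. Its log2 difference was -7.37 (SE 0.74, adjusted p = 0.00487, limma), and it was at least 162-fold lower in antenna, taking 3 reads across its antenna libraries together as the floor. Their recovered coding lengths, 249 and 234 bases, were also short.

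**Figure D2:**
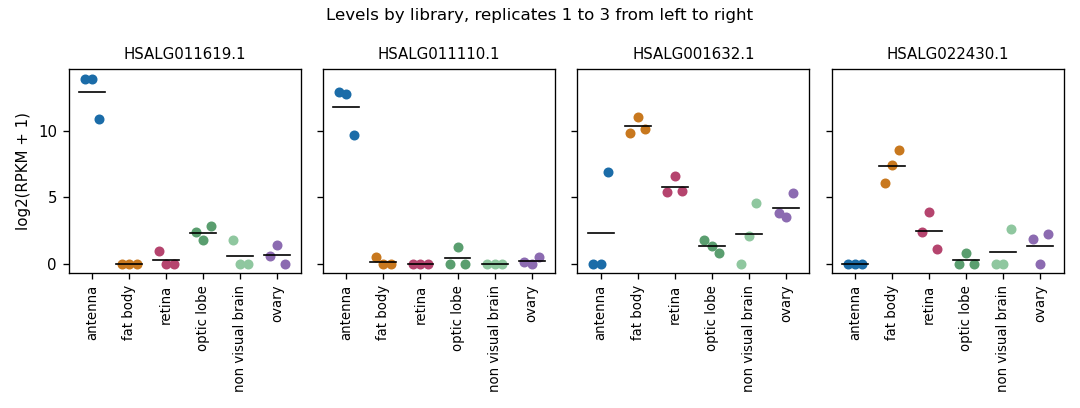
Level as log2(RPKM + 1) (vertical axis) of HSALG011619.1, HSALG011110.1, HSALG001632.1 and HSALG022430.1 in the 18 libraries by tissue, 1 point per library with replicates 1 to 3 from left to right and the mean as a line. Antenna replicate 3 is the lowest antenna library for the first pair and the only antenna library above 0 for HSALG001632.1, and HSALG022430.1 is at 0 in all antenna libraries.

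Many of the genes higher in fat body were not seen in antenna at all. Of the 378, 158 were listed at 0 in every antenna library, and of the 297 genes higher in antenna, 49 were listed at 0 in every fat body library. Of all 8352 rows, 274 were listed at 0 in every antenna library and 64 in every fat body library. Such rows passed the filter only through the other tissue, with all 3 of its libraries at 1 RPKM or more. They could therefore be called in 1 direction only. Among the genes called without antenna replicate 3, 148 of 889 and 59 of 487 were listed at 0 in all 3 libraries of the lower tissue. The depth behind these zeros differed. At their fat body level the 158 genes would have given a median of 51.8 reads over the 3 antenna libraries together, and 8.51 at the least. With 3 reads as the floor they were lower in antenna by at least 2.84-fold to 300-fold, with a median bound of 17.3. The 49 genes would have given a median of 703 reads over the fat body libraries at their antenna level, and their bounds ran from 47.6-fold to 52578-fold with a median of 234. With reads thinned to the total of the shallowest library, limma called 267 genes higher in antenna, 250 of them among the 297, and 307 higher in fat body, 301 of them among the 378.

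Antenna replicate 3 took an intermediate place in the genes that the other libraries told apart, and more so for genes higher in fat body. The fits behind these calls did not use it, but the filter of rows, at 1 RPKM or more in at least 3 of the 6 libraries, did. A gene low in fat body could thus pass through replicate 3 itself, which can raise the share above fat body. With the filter on the 5 libraries alone, 385 genes were higher in antenna, 354 of them among the 487. In the other direction 1014 were called, among them all 889. The filter on 6 libraries also stands behind the other left-out libraries below. A gene at 0 in every library of 1 tissue passed only with all 3 libraries of the other at 1 RPKM or more. For such genes the place of a left-out library of that other tissue was fixed by the filter. Of the 487 genes called higher in antenna without replicate 3, 422 (86.7%) lay above all fat body libraries in replicate 3, against 52.8% of all 8352 rows. On the log2 scale replicate 3 lay at a median of 72.3% of the way from the fat body mean to the mean of the other antenna libraries. Of the 889 genes called higher in fat body without it, 589 (66.3%) lay below all fat body libraries in replicate 3, against 23.3% of all rows, and the median position was 36% of the way. Of these 889 genes, 457 were listed at 0 in antenna replicates 1 and 2. Of the 457, 309 were above 0 in replicate 3 and 148 were at 0 there too. Of all 8352 rows, 1118 were listed at 0 in antenna replicates 1 and 2, and 274 of these were at 0 in replicate 3 too. Being above 0 in replicate 3 was thus not particular to the called genes. When antenna replicate 1 or 2 was left out instead, the left-out library lay beyond all fat body libraries for 107 of 108 and 103 of 104 genes higher in antenna (32.3 and 35.7% of all rows) and for 100 of 105 and 90 of 97 genes higher in fat body (42.3 and 40.3% of all rows). The median position was then 100 to 113%. A left-out fat body library lay beyond all antenna libraries for every gene called without it, which were 42, 39 and 38 genes higher in antenna and 11, 4 and 3 higher in fat body for replicates 1, 2 and 3. The shares of all rows were 23.1, 19.7 and 25.2% in the first direction and 18.2, 26.1 and 19.6% in the second.

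**Figure D3:**
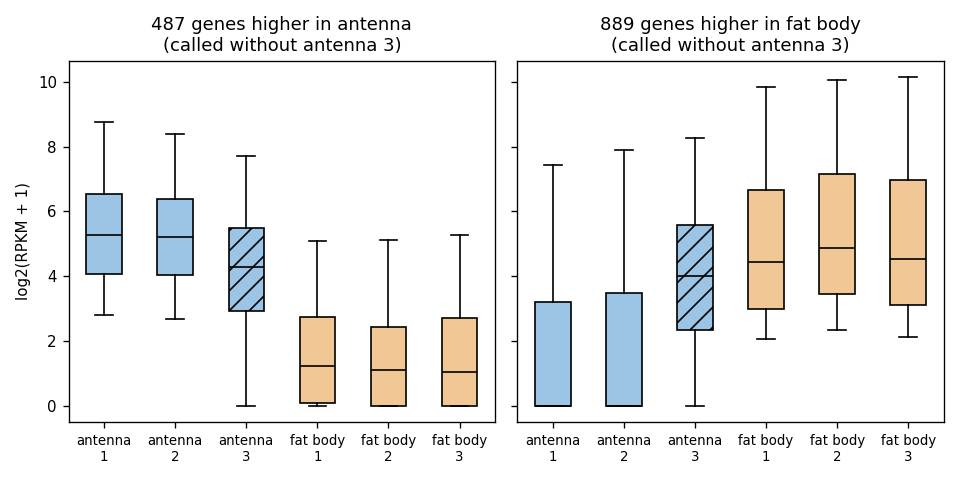
Level as log2(RPKM + 1) (vertical axis) in each of the 6 libraries for the 487 genes higher in antenna (left) and the 889 genes higher in fat body (right), both called without antenna replicate 3, which is hatched. Boxes span the quartiles, the line is the median and whiskers run from the 5th to the 95th percentile of genes. Antenna replicate 3 lies between the other antenna libraries and the fat body libraries in both panels, and its median is 15 RPKM for the 889 genes against 0 in antenna replicates 1 and 2.

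Set beside the other 4 tissues, more genes higher in antenna had their highest mean in antenna than in any other tissue. They numbered 168 of the 297 (56.6%, against 6.86% of all rows), and the antenna libraries are shared with the comparison. A further 59 were highest in optic lobe (19.9%, against 33.5% of all rows), 45 in non-visual brain (15.2%, against 12.3%), 21 in retina (7.07%, against 4.79%) and 4 in ovary (1.35%, against 31.7%). Of the 487 genes called without antenna replicate 3, 250 (51.3%) were highest in antenna, with means over all 3 antenna libraries. Retina was at least 2-fold above fat body in 197 of the 297 genes (66.3%, against 17.6% of all rows). The non-visual brain was so in 222 (74.7%, against 46%), the optic lobe in 225 (75.8%, against 53.6%) and ovary in 77 (25.9%, against 42.8%). These genes were chosen for a low fat body level in the same libraries, which raises such shares by itself, so the shares are a description. The antenna itself was at least 2-fold above each of the 5 other tissues in 103 of the 297 genes (34.7%, against 2.1% of all rows). Fat body was at least 2-fold below each of the 4 tissues outside the comparison in 47 (15.8%, against 7.02%), and both shares carry the same limit.

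Most genes higher in fat body had their highest level there, and ovary came next. Of the 378, 251 (66.4%) had their highest mean in fat body, against 10.8% of all rows, and 86 (22.8%) had it in ovary, against 31.7% of all rows. The genes were chosen for a high level in the same fat body libraries, which raises the share of fat body by itself. A further 30 had it in optic lobe (7.94%, against 33.5%), 9 in non-visual brain (2.38%, against 12.3%) and 2 in retina (0.529%, against 4.79%). Of the 889 genes called without antenna replicate 3, 467 (52.5%) were highest in fat body, 240 (27%) in ovary, 121 in optic lobe, 46 in non-visual brain and 15 in retina. Ovary was at least 2-fold above the antenna in 211 of the 378 genes (55.8%, against 46.2% of all rows), and retina in 181 (47.9%, against 21%). The non-visual brain was so in 182 (48.1%, against 46.9%) and the optic lobe in 177 (46.8%, against 55.5%). For the 889 genes the shares were 64.2% in ovary, 60.4% in optic lobe, 58.5% in non-visual brain and 46.6% in retina, so the optic lobe passed from below to above its share of all rows. The antenna libraries that chose these genes for a low level enter each of these shares, which are therefore a description. Fat body was at least 2-fold above each of the 5 other tissues in 187 of the 378 genes (49.5%, against 4.57% of all rows) and in 283 of the 889 (31.8%). The antenna was at least 2-fold below each of the 4 tissues outside the comparison in 128 of the 378 (33.9%, against 13.6%) and in 318 of the 889 (35.8%). The fat body and antenna libraries that chose the genes enter these shares too, so they carry the same limit.

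**Figure D4:**
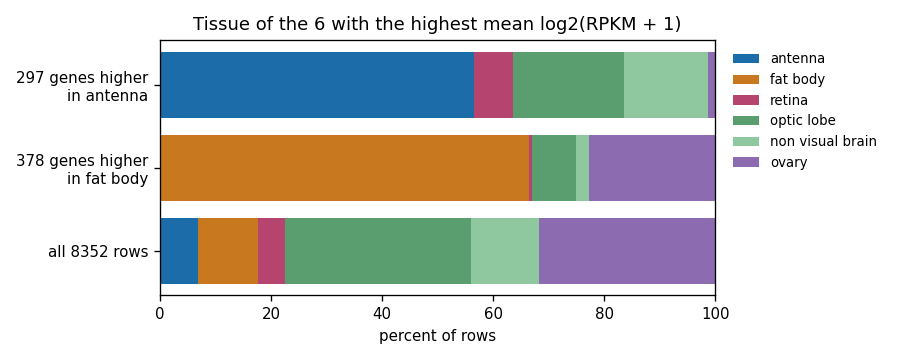
Percent of rows (horizontal axis) by the tissue with the highest mean log2(RPKM + 1), for the 297 genes higher in antenna, the 378 genes higher in fat body and all 8352 rows. Antenna leads in 56.6% of the first set and fat body in 66.4% of the second, and the brain parts lead in most of the remainder of the first set and ovary in most of the remainder of the second.

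Genes that the brain parts and the retina held far above the ovary stood higher in antenna than in fat body. The list of such genes is named neural only for the tissues that chose it, and no role was assigned to its members. It was chosen on the 12 libraries of the other tissues, with both brain parts and retina at least 8-fold above ovary on the log2(RPKM + 1) scale. Neither antenna nor fat body took part in the choice. The ovary was from gamergates, so a difference of caste can enter the list too. Over all 131 members the median log2 difference, antenna minus fat body, was 2.42, against -0.05 over the 8352 rows, and 2.14 without antenna replicate 3. The median member stood at 15.8, 19 and 28.5 RPKM in antenna replicates 1, 2 and 3 and at 1.53 to 2.71 RPKM in fat body, and the tissues did not overlap. Of the 131, 117 passed the filter, and 43 of these were called higher in antenna (36.8%, against 3.56% of all rows). Only 1 was called higher in fat body (0.855%, against 4.53%). Without antenna replicate 3 the numbers were 48 and 2, where 5.83 and 10.6% of all rows were called. The call count rested on each other library, with 15 and 12 genes higher in antenna without antenna replicates 1 and 2 and 2 to 3 without a fat body library. Of all rows, 108 and 104, and 38 to 42, were then called higher in antenna. The median of the members that passed was 2.04 to 3.05 under the 3 other scalings.

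A brain list, with both brain parts at least 8-fold above retina and ovary, moved the same way with a smaller median. Its 191 members had a median log2 difference of 1.63, and 1.44 without antenna replicate 3. The median member stood at 5.45 to 8.91 RPKM in the antenna libraries and at 0.775 to 1.08 RPKM in fat body. The 3 antenna libraries thus held 9.41, 13.2 and 20.1% of the brain level of the median member and the fat body libraries 1.44 to 2.16%. Of 132 members that passed the filter, 30 were called higher in antenna (22.7%, against 3.56% of all rows) and 3 higher in fat body (2.27%, against 4.53%). The numbers were 41 and 5 without antenna replicate 3, where 5.83 and 10.6% of all rows were called. The brain and neural lists shared 4 genes. The count for the brain list was 11 and 12 without antenna replicates 1 and 2, 6 to 7 without a fat body library, and 49 with libraries rescaled to the same sum. Of all rows, 108 and 104, 38 to 42, and 495 were called higher in antenna in these settings.

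The retina list, with retina at least 8-fold above both brain parts and ovary, depended on antenna replicate 3. Its 126 members had a median log2 difference of 1.21 with all libraries and 0.32 without antenna replicate 3. The median member stood at 3.39, 10.9 and 26.3 RPKM in antenna replicates 1, 2 and 3, which was 1.57, 4.07 and 22.7% of its retina level. In fat body it stood at 1.46 to 2.94 RPKM, or 0.879 to 1.42%. The 126 genes summed to 5958, 9078 and 63825 RPKM in antenna replicates 1, 2 and 3 and to 12925 to 16989 RPKM in fat body. The neural list, which shares 5 genes with it, also summed highest in antenna replicate 3, at 58824 RPKM against 8289 and 10849 in replicates 1 and 2. Their part in the other results that use antenna replicate 3 was not tested. Of 86 members of the retina list that passed the filter, 17 were called higher in antenna (19.8%, against 3.56% of all rows). In fat body 3 were called higher (3.49%, against 4.53%). The list gave 17 and 6 without antenna replicate 3, where 5.83 and 10.6% of all rows were called. The genes higher in antenna were 5 without antenna replicate 1 or 2 and 2 to 5 without a fat body library. Of all rows, 108 and 104, and 38 to 42, were then called higher in antenna.

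Genes of the ovary and genes at an even level elsewhere gave few calls in favour of antenna. The ovary list of 324 genes, at least 8-fold above both brain parts and retina, had a median log2 difference of 0, and 100 members passed the filter. The 0 reflects members listed at 0 in most of these libraries. Over the 100 that passed, the median was -0.41, against -0.05 over all rows. Without antenna replicate 3 it was -0.5, against -0.31. None of these (0 of 100, against 3.56% of all rows) was called higher in antenna by limma with all libraries and 11 were higher in fat body (11%, against 4.53%). At an unadjusted p under 0.05 the numbers were 6 and 25, against 900 and 987 of all rows. The adjusted calls were 1 and 10 with voom, where 429 and 421 of all rows were called. They were 2 and 6 with every library rescaled to an equal sum (495 and 268 of all rows). Trimmed-mean factors gave 0 and 21 (253 and 799 of all rows), and all 18 libraries in 1 fit gave 6 and 26 (898 and 974 of all rows). Without antenna replicate 3 they were 2 and 21 (487 and 889 of all rows). The 11 became 2 without antenna replicate 1 or 2, where 105 and 97 of all rows were called higher in fat body. They became 0 to 1 without a fat body library, where 3 to 11 of all rows were called. The even list held 303 genes at 20 RPKM or more whose means in the 4 other tissues lay within 2-fold of each other on the log2(RPKM + 1) scale, and all passed the filter. Its median was -0.63, with 2 genes higher in antenna (0.66%, against 3.56% of all rows) and 16 higher in fat body (5.28%, near the 4.53% of all rows). Trimmed-mean factors gave 1 and 54, where 253 and 799 of all rows were called. Rescaled to the same sum, the median of the even list turned to 0.02, but that of all rows rose to 0.39. The even list then lay at -0.37 relative to the median of all rows, against -0.58 as deposited. In that scaling 7 even genes were called each way, where 495 and 268 of all rows were called. The median even gene stood at 54.7, 63.6 and 95.7% of its level in the 4 other tissues in antenna replicates 1, 2 and 3, and at 76.3 to 108% in fat body. Without antenna replicate 3, 8 even genes were higher in antenna and 53 higher in fat body, where 5.83 and 10.6% of all rows were called. When the libraries were also rescaled, 21 and 25 even genes were so, where 902 and 657 of all rows were called. The 16 genes became 4 and 5 without antenna replicates 1 and 2, where 105 and 97 of all rows were called higher in fat body. They became 1 without each fat body library in turn, where 11, 4 and 3 of all rows were called.

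**Figure D5:**
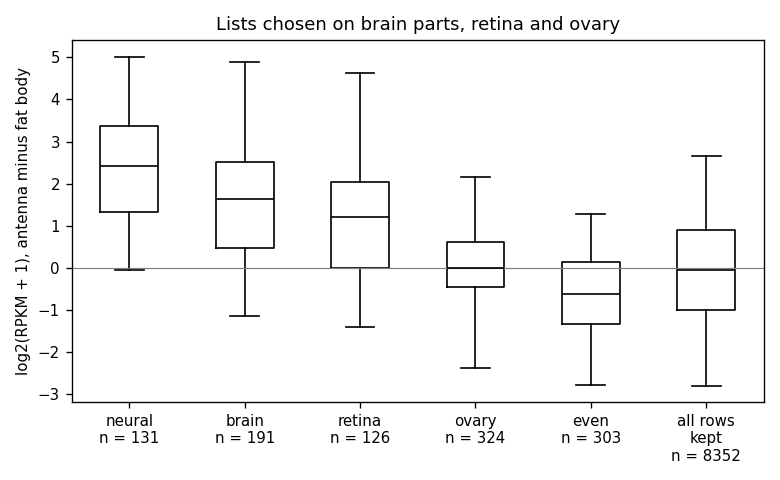
Difference in log2(RPKM + 1), antenna minus fat body (vertical axis), for all members of the lists chosen on the other 4 tissues and for the 8352 rows. Boxes span the quartiles, the line is the median and whiskers run from the 5th to the 95th percentile of genes. The medians are 2.42 (neural), 1.63 (brain), 1.21 (retina), 0 (ovary), -0.63 (even) and -0.05 (all rows). With libraries rescaled to the same sum they are 0.02 (even) and 0.39 (all rows).

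Loci outside the HSALG gene models were called higher in antenna more often than higher in fat body. The table names 438 of its 20755 rows XLOC, and 221 of these passed the filter. Of the 221, 18 (8.14%) were higher in antenna and 7 (3.17%) higher in fat body, against 3.43% and 4.56% of the 8131 HSALG genes that passed. The XLOC counts were 25 and 10 without antenna replicate 3, where 462 and 879 of the 8131 HSALG genes were called. Whether the share of XLOC loci differs from that of HSALG genes was not tested.

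Called genes in both directions were shorter than the rest. The recovered coding length of HSALG genes had a median of 750 bases among those higher in antenna and 785 among those higher in fat body, against 1178 over all HSALG genes that passed the filter. In the shortest of 4 equal classes of length, 63 to 648 bases, 6.18% of genes were higher in antenna and 7.4% higher in fat body. In the longest class, 2019 bases and more, the shares were 1.82 and 1.72%. The counts without antenna replicate 3 were 198 and 303 in the shortest class (2040 genes) and 83 and 84 in the longest (2031 genes). Of all HSALG genes that passed the filter, 462 and 879 were then called. The median absolute log2 difference over all genes of a class was lower in longer classes, from 1.26 in the shortest to 0.72 in the longest. At a given RPKM a short gene rests on fewer reads, and the part of depth in this was not tested. By level, genes higher in antenna lay mostly in the upper 2 of 4 classes of mean level (113 and 109 genes, against 21 and 54 in the lower ones). Those higher in fat body lay mostly in the highest (179) and the lowest (94) class. Each class held 2088 rows, and from the lowest to the highest 5.51, 5.75, 7.28 and 13.8% were called in either direction. The classes rest on the mean of the same 6 libraries that gave the calls, so these counts are a description.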

How the data were processed

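RNA-seq libraries of antenna and fat body (3 each) were compared. The deposited values are RPKM, 1 column per library, per the file headers and the labels. STAR 2.5.0b and DESeq2 are named without a role, per the submitters' processing notes. Genome build, annotation and read counting: not given in the sources used here. Libraries were unstranded, per the labels' protocols, so overlapping antisense genes cannot be told apart. The members and lists were chosen with earlier results of these data known.

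Log2(RPKM + 1) was tested with limma 3.58.1 (R 4.3.3, mean-variance trend, two-sided) on the 6 libraries, with Benjamini-Hochberg adjustment over 8352 rows. Named genes are the 2 per direction with the largest difference, called with and without antenna replicate 3, whose tissues do not overlap. The pseudocount makes the log2 difference of low genes smaller than their true change. Because RPKM steps are whole reads over length and total, reads, lengths and totals were recovered (Python 3.11.15) for 16189 of 16191 rows above 0 in at least 3 libraries, each value whole within its 6 printed digits plus a relative allowance of 1.5e-06. Of recovered HSALG lengths 98.1% were multiples of 3 and are called coding length. Between 62.3 and 68% of read counts from 1 to 10 in these libraries were even, so reads are not independent molecules. The limma test and the recovery of reads were each run on simulated data, and the outcomes are not reported here. Alternatives were other pseudocounts, filters, scalings, library weights, a replicate block, voom, thinned reads, all 18 libraries in 1 fit and leaving out each library.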

Additional observations from a re-analysis of the deposited data

How the results depend on the processing

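The main counts, 297 genes higher in antenna and 378 higher in fat body, became 151 and 136 without a filter and 898 and 974 with all 18 libraries in 1 fit. Rescaled to the same sum, 495 genes were higher in antenna, and with trimmed-mean factors 799 were higher in fat body. Leaving out 1 library gave 38 to 487 genes higher in antenna and 3 to 889 higher in fat body. Without antenna replicate 3, the 487 genes became 902 when rescaled to the same sum, a joint fit of 17 libraries gave 1004 and 1744, and voom, chosen after seeing the data, gave 513 higher in fat body. The causes were not tested. Pseudocounts of 0.1 and 5, a filter of 5 RPKM, quantile normalization, library weights, voom and thinned reads kept both main counts within 1.5 times. Of 106 alternative values of the 4 named genes 99 kept the call, and the 7 that lost it were all of HSALG001632.1. With the replicate number as a block, 155 and 185 genes were called. The labels do not say that a number pairs samples, and deviations of same-numbered libraries correlated at 0.01, -0.07 and -0.09. Depth limits the genes at 0 in antenna, where 3 reads at 1000 bases are worth up to 1.27 RPKM.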

Other observations

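The list of 324 genes chosen for a high level in the gamergate ovary stood at unequal levels in the worker libraries. It summed to 789, 6865 and 3015 RPKM in antenna replicates 1, 2 and 3 and to 7231, 2543 and 2090 RPKM in fat body replicates 1, 2 and 3. The median member was listed at 0 in every one of these libraries except fat body replicate 1, where it stood at 0.538 RPKM. Of the 324 genes, 21, 42 and 30.2% were at 1 RPKM or more in antenna replicates 1, 2 and 3 and 42.6, 29 and 29.6% in the fat body libraries. Of the 8352 rows, which were filtered on this level while the list was not, 70.1, 68.8 and 85.5% were so in antenna. In fat body 88.1, 90 and 77.9% of the 8352 rows were so. The list thus summed highest in replicate 2 of antenna and replicate 1 of fat body. Whether these reads came from ovary or from the labelled tissue was not tested.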
